A study of Homo sapiens with 18 samples.

Results

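The 40 genes described here encode lysosomal hydrolases, lysosomal membrane proteins, subunits of the vacuolar proton pump and the TFEB family of transcription factors. They form a list set by gene function, and all 40 were found by symbol among the 60252 gene identifiers of the count table. The RNA came from MCF-10A, an immortalised and non-tumorigenic human breast epithelial line, kept for 8 days in Matrigel, where the cells form 3-dimensional structures. Each of the 6 groups carried a stable retroviral construct: the empty vector PWZL (Control), or the coding sequence of SRSF2, SRSF4, SRSF6 or SRSF9, which are SR splicing factors, or of TRA2B, an SR-like splicing factor. The overexpression groups are written SRSF2-OE, SRSF4-OE, SRSF6-OE, SRSF9-OE and TRA2B-OE, and the sources used here do not say whether the lines were clones or pools, or whether the replicates of a group were grown apart; p-values therefore reflect only how far libraries of a group differ, and that spread may be technical. Of the 18 samples, 3 per group, replicates 1 and 2 were lanes of a single library in every group but SRSF2-OE and SRSF9-OE, and were summed there. This left 14 libraries, 3 in SRSF2-OE, 3 in SRSF9-OE and 2 in each other group. The study asked how gene expression and splicing differed from Control in each overexpressing line.

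The lysosome is the acidic compartment in which cells break down protein, glycans, lipids and glycogen delivered by endocytosis and autophagy. The vacuolar ATPase pumps protons into it, membrane proteins such as LAMP1 and LAMP2 line it, and soluble hydrolases reach it mostly through mannose 6-phosphate receptors. TFEB, TFE3 and MITF are related transcription factors that bind a short palindromic element in many lysosomal promoters. When nutrients are plentiful, mTORC1 and the Rag GTPases keep TFEB in the cytoplasm by phosphorylation, so that its activity is set largely after the messenger RNA is made.

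The 14 libraries held 42959069 to 121601376 counts. Levels are given as CPM, each count relative to its library's total after TMM scaling. The transcript of the overexpressed factor was above every Control library in all SRSF2-OE, SRSF4-OE, SRSF9-OE and TRA2B-OE libraries. SRSF6, however, stood at 417 and 283 CPM in SRSF6-OE against 400.0 and 239 in Control. Both SRSF6-OE libraries thus lay within the range of 237 to 448 over the other groups, and directions given for SRSF6-OE are those of the libraries so labelled. SRSF2 stood at 214 CPM in replicate 1 of SRSF2-OE against 204 and 176 in Control. That library lay within the range of 176 to 272 over the other groups, and the other SRSF2-OE libraries stood at 396 and 310. TRA2B stood at 147 CPM in replicate 3 of TRA2B-OE against 106 and 105 in Control. That library lay within the range of 105 to 168 over the other groups, and its partner library stood at 201. The basal epithelial markers KRT5 (7079 to 20009 CPM) and TP63 (113 to 255 CPM) were present in every library. Of the 8 genes in that list, EPCAM was low at 0.54 to 11.4 CPM, and the rest stood at 91.2 CPM or more. Of cell types rich in lysosomes, the macrophage markers TYROBP and PTPRC reached at most 0.184 CPM. CD14 ranged from 1.01 to 5.52 CPM and ITGAM from 0.405 to 2.17. AIF1 had 0 counts, which in this count table need not mean absence, as given below for NEU1. The osteoclast markers OCSTAMP and DCSTAMP had 0 counts. The 4 osteoclast genes together summed to 0.323 to 6.17 CPM, with ACP5 reaching 6.13. The macrophage list as a whole, 6 genes matched, summed to 11.1 to 58.9 CPM, of which CSF1R made up the larger share at up to 53.1. The mitochondrial share of counts ranged from 6.45% to 16.4%.

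Messenger RNA for the degradative core of the lysosome was measured in all groups. In such bulk samples, fewer cells of a type and less RNA per cell cannot be told apart. Summed over the members, levels were 4078 ± 139 CPM in Control (SD, n = 2), 4343 ± 617 in SRSF2-OE (n = 3), 4090 ± 22.9 in SRSF4-OE (n = 2), 4746 ± 929 in SRSF6-OE (n = 2), 4118 ± 317 in SRSF9-OE (n = 3) and 3697 ± 208 in TRA2B-OE (n = 2). On plain library sizes the sum was 4306 CPM in Control, 4110.0 in SRSF2-OE, 4239 in SRSF4-OE and 4163 in SRSF9-OE, so these 3 groups lay above Control with TMM and below it without. PSAP alone, the precursor of the saposins that present sphingolipids to their hydrolases, made up 18.7% of that sum, and PSAP, CTSB, CTSD, CD63 and LAMP2 together 50.7%. Per kilobase of exon, PSAP led at 242 CPM per kb, followed by the tetraspanin CD63 at 93.6, the cathepsins CTSB at 84.8, CTSD at 82.6 and CTSZ at 65.1, and the cholesterol carrier NPC2 at 49.1. Near the lower end were the cysteine protease CTSS at 0.3 CPM per kb and MITF at 0.655.

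The steadiest members over the 14 libraries were the acid ceramidase ASAH1, whose highest level was 1.4 times its lowest, LAMP1 (1.44), the pump subunit ATP6V1A (1.48) and LAMP2 (1.52). The most variable were the fucosidase FUCA2 (34.2), the cathepsin CTSH (6.84), CTSS and the glycogen-degrading GAA (5.78 each), TFE3 (5.41), CTSF (4.96) and CTSB (4.82). Of these, TFE3 averaged only 0.732 CPM and CTSS 1.27, and the counts of TFE3 carry the limit given below. Replicate 3 of SRSF6-OE held the lowest level of 5 members (CTSF, CTSH, HEXA, SGSH and GAA) and the highest of 5 others (CTSB, NPC1, LAMP2, CD63 and ATP6V1H). Replicate 3 of TRA2B-OE held the lowest level of 10 members.

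**Figure D1:**
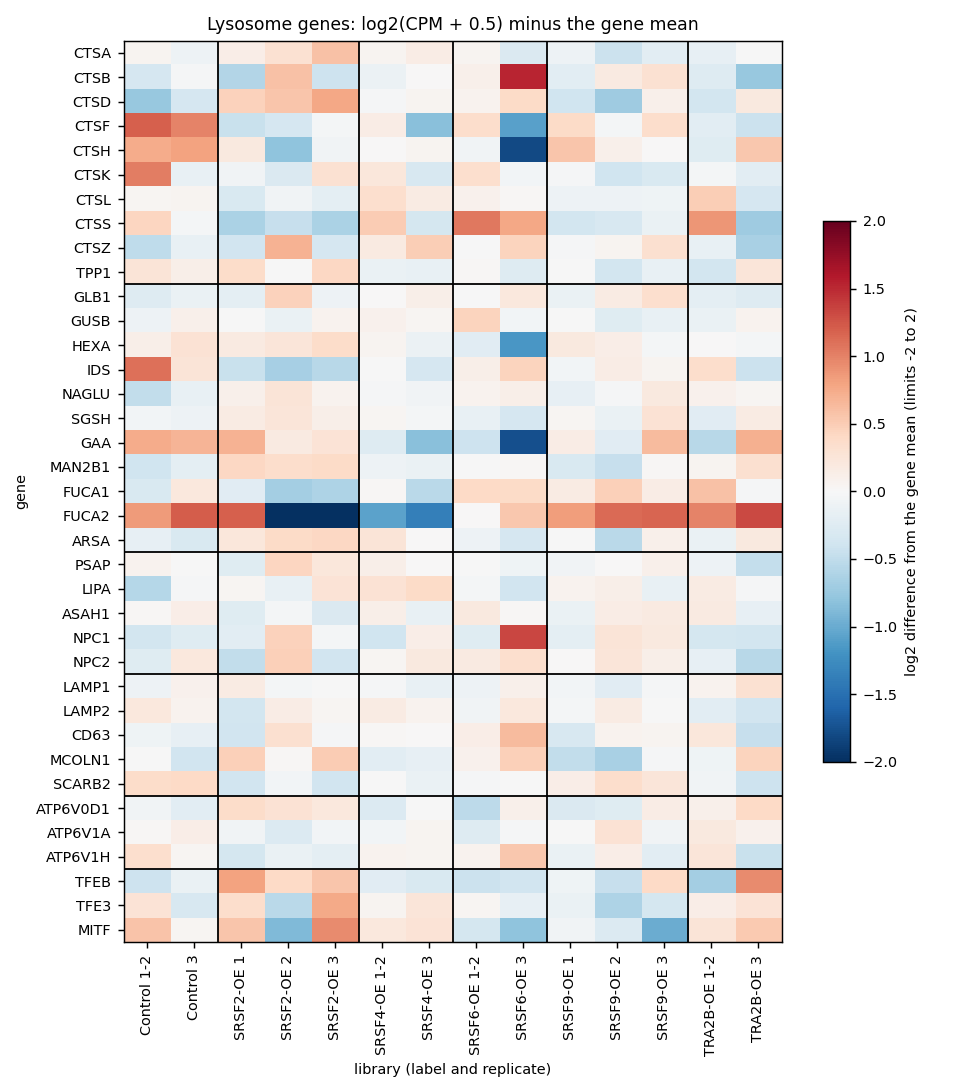
Colour shows log2(CPM + 0.5) of each tested member minus its mean over the 14 libraries; rows are genes grouped by role, columns are libraries grouped by construct, and colours stop at -2 and 2. CTSF is highest in both Control columns, FUCA2 is lowest in SRSF2-OE replicates 2 and 3 (2.3 and 2.09 CPM) and below Control in SRSF4-OE, and the SRSF6-OE replicate 3 column departs from its partner in CTSB, CTSH, GAA, HEXA and NPC1.

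GLA and NEU1, which encode alpha-galactosidase A and a lysosomal sialidase, had 0 counts in every library, and ATP6AP1, a pump accessory subunit, had 6 counts in all. These 3 were left out of the tests by the filter on low counts, and 37 of the 40 members were tested. Genes beside them in the annotation that nearly all cells use were also close to 0: RPL36A had 6 counts and HNRNPH2 had 1 beside GLA, LSM2 and VARS1 had 0 beside NEU1, and EMD had 0 and RPL10 had 35 beside ATP6AP1. The counts therefore do not show whether these genes were expressed. IDS (6169 counts, with FMR1 at 0 nearby) and TFE3 (689 counts, with SLC35A2 at 4 nearby) also have such neighbours. The stretches are not uniform, since UBL4A beside ATP6AP1 had 15268 counts and GRIPAP1 beside TFE3 had 5592. LAMP2 and TFEB each have such a neighbour too, ZBTB33 and TOMM6, both with 0 counts, although CUL4B beside LAMP2 had 73514 counts and FOXP4 beside TFEB had 20064. The levels of IDS and TFE3 are therefore not read as levels of expression, those of TFEB and LAMP2 carry a like doubt, and the reason for the low stretches was not tested.

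Against Control, edgeR's quasi-likelihood test with Benjamini-Hochberg adjustment called 0 of the 37 members at an adjusted p below 0.05 in each contrast and in the F test over the 5 contrasts. Over all 21326 genes tested it called 0% in SRSF2-OE, SRSF4-OE and SRSF9-OE, 0.00469% in SRSF6-OE, 0.00938% in TRA2B-OE and 0.0422% in the F test. Without replicate 1 of SRSF2-OE and replicate 3 of TRA2B-OE, whose own factor lay within the range of the other groups while that of their partners did not, the counts of members called were 1 in SRSF2-OE (0.207% of all genes), 1 in SRSF4-OE (0.396%) and 1 in the F test (0.337%), in each case FUCA2, and 0 in SRSF6-OE (0.216%), SRSF9-OE (0%) and TRA2B-OE (0.00899%). DESeq2 called 3 members in SRSF2-OE (2.37% of all genes), 1 in SRSF4-OE (2.70%), 4 in SRSF6-OE (5.81%), 0 in SRSF9-OE (0.0703%), 1 in TRA2B-OE (2.12%) and 5 in its likelihood ratio test over the contrasts (7.41%). In that order, its calls were 8.11%, 2.7%, 10.8%, 0%, 2.7% and 13.5% of the members tested. limma-voom called 0 members in every contrast.

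At an unadjusted p below 0.05 in edgeR, 7 members stood apart from Control in SRSF2-OE (4 higher, 3 lower; 13.4% of all genes), 6 in SRSF4-OE (2 higher, 4 lower; 14.9%), 9 in SRSF6-OE (4 higher, 5 lower; 19.5%), 0 in SRSF9-OE (4.47%) and 5 in TRA2B-OE (2 higher, 3 lower; 12.0%). The F test had 9 such members, against 13.6% of all genes. In the order given, with the F test last, these were 18.9%, 16.2%, 24.3%, 0%, 13.5% and 24.3% of the members tested. Counted without a model, 10 members had every library above every Control library in SRSF2-OE (16.7% of all genes) and 9 had every library below (17.5%). These counts were 11 and 8 in SRSF4-OE (25.3% and 27.2%), 11 and 11 in SRSF6-OE (22.8% and 24.4%), 2 and 9 in SRSF9-OE (16.5% and 17.6%) and 4 and 6 in TRA2B-OE (18.3% and 18.2%). As shares of the members tested, they were 27.0% and 24.3%, 29.7% and 21.6%, 29.7% and 29.7%, 5.41% and 24.3%, and 10.8% and 16.2%. The median log2 fold change of the members was 0.06 in SRSF2-OE, where the median of all genes was 0.04, -0.01 against -0.04 in SRSF4-OE, 0.00 against -0.03 in SRSF6-OE, -0.05 against 0.00 in SRSF9-OE and -0.03 against 0.00 in TRA2B-OE. Members were thus fitted above and below Control in near equal number, 19 and 18 in SRSF2-OE, 18 and 19 in SRSF4-OE, 19 and 18 in SRSF6-OE, 16 and 21 in SRSF9-OE and 17 and 20 in TRA2B-OE. The 5 contrasts share the same 2 Control libraries. CTSF, CTSH and SCARB2, 3 members in all, were below both Control libraries in all 12 overexpression libraries, which is 8.11% of the members tested against 3.87% of all genes, and 0 members were above both Control libraries in all 12, against 4.31% of all genes.

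**Figure D2:**
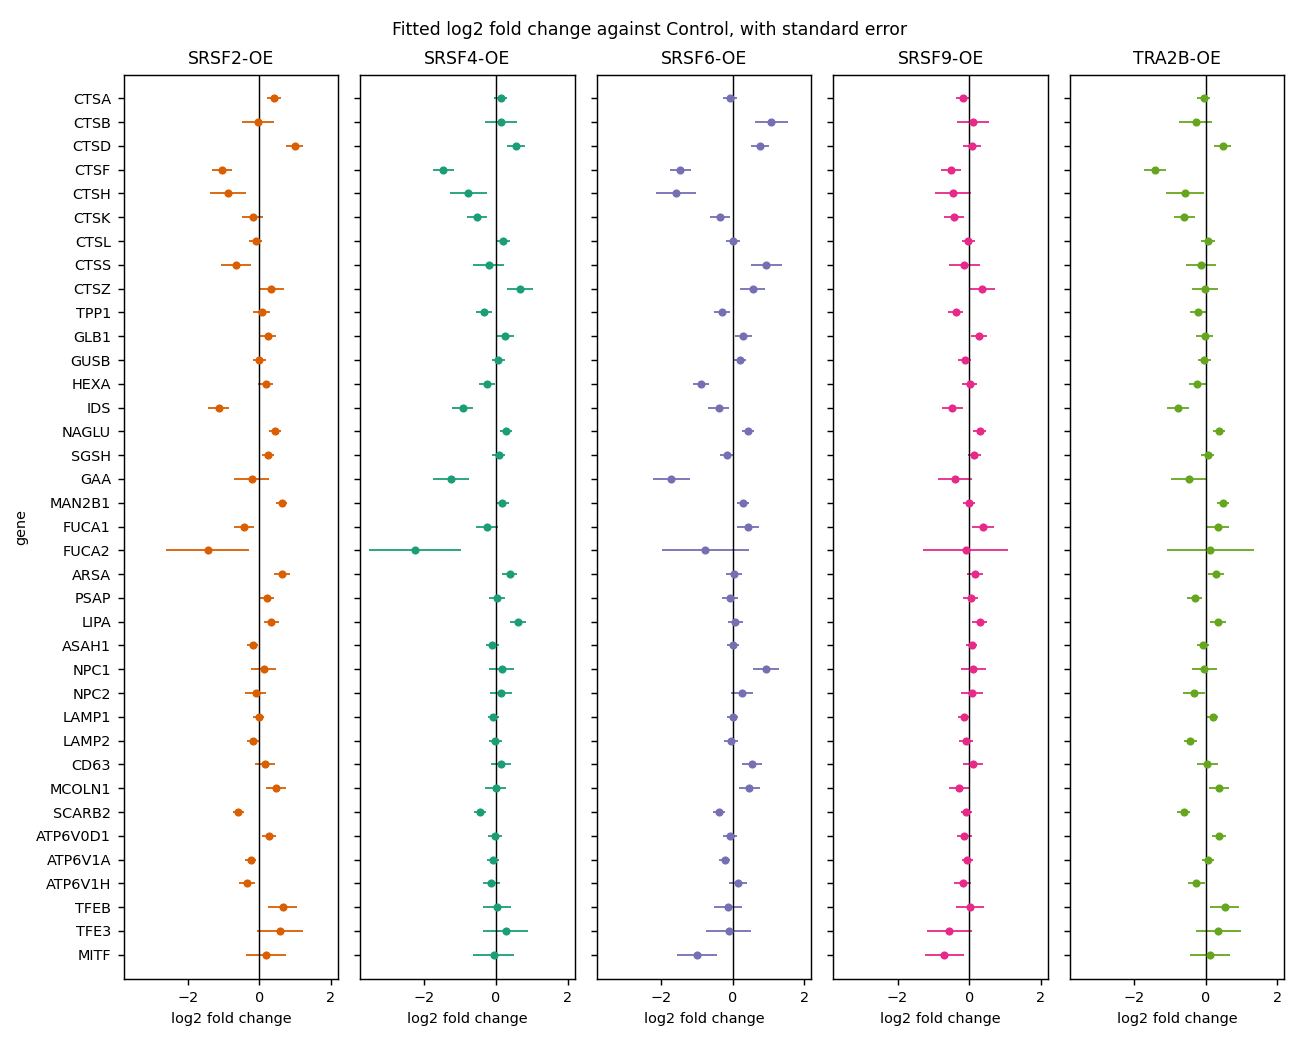
Points are fitted log2 fold changes against Control for the 37 tested members in the 5 contrasts, and bars are standard errors. CTSF lies left of 0 in each panel (-1.04, -1.47, -1.46, -0.52 and -1.42), CTSD lies right of 0 in each, and the FUCA2 bars are the widest (SE 1.16 to 1.28).

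Among the 10 proteases, the cysteine protease cathepsin F stood out. CTSF measured 86.9 and 75.9 CPM in Control, 27.7, 29.8 and 36.8 in SRSF2-OE, 41.8 and 21.1 in SRSF4-OE, 48.2 and 17.5 in SRSF6-OE, 49.7, 37.0 and 48.6 in SRSF9-OE, and 32.7 and 28.1 in TRA2B-OE. No overexpression library reached either Control library. The log2 fold changes were -1.04 ± 0.28 (SE) in SRSF2-OE, -1.47 ± 0.30 in SRSF4-OE, -1.46 ± 0.30 in SRSF6-OE, -0.52 ± 0.28 in SRSF9-OE and -1.42 ± 0.30 in TRA2B-OE. In that order, edgeR gave adjusted p-values of 0.211, 0.212, 0.136, 0.870 and 0.154, and DESeq2 gave 0.051, 0.0034, 0.0023, 0.930 and 0.0033, so that CTSF passed in 3 contrasts with DESeq2 and in none with edgeR.

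The labels name 4 libraries, the summed ones, by a library ID and the other 10 by a plain number, and the fit carries a term for that difference. Taken within each kind of label, the log2 ratio of CTSF to Control was -1.06 and -1.85 in SRSF4-OE, -0.85 and -2.11 in SRSF6-OE and -1.41 and -1.43 in TRA2B-OE, for library-ID and number labels respectively. For SRSF2-OE and SRSF9-OE, which have only number labels, it was -1.27 and -0.75. CTSF was thus below Control within both kinds.

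Cathepsin D, the main aspartic protease of the lysosome, had higher levels than Control in several groups. CTSD measured 146 and 195 CPM in Control, 340.0, 362 and 422 in SRSF2-OE, 242 and 255 in SRSF4-OE, 259 and 321 in SRSF6-OE, 187, 151 and 265 in SRSF9-OE, and 191 and 282 in TRA2B-OE. The SRSF2-OE, SRSF4-OE and SRSF6-OE libraries all lay above Control, while SRSF9-OE and TRA2B-OE overlapped it. The log2 fold change in SRSF2-OE was 0.98 ± 0.25 (edgeR adjusted p = 0.186, DESeq2 adjusted p = 0.020), and 1.09 without TRA2B-OE replicate 3 and SRSF2-OE replicate 1. In SRSF4-OE it was 0.57 ± 0.25 and in SRSF6-OE 0.77 ± 0.25, with edgeR adjusted p-values of 0.327 and 0.181. In GENCODE release 29, 41.7% of the CTSD exon bases overlap another gene on the same strand, and the treatment of reads there is not stated in the sources used here.

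Cathepsin H, an aminopeptidase, was also below Control throughout. CTSH measured 23.2 and 24.2 CPM in Control, 15.6, 7.58 and 12.9 in SRSF2-OE, 13.6 and 14.1 in SRSF4-OE, 12.9 and 3.53 in SRSF6-OE, 20.2, 14.6 and 13.7 in SRSF9-OE, and 11.4 and 19.9 in TRA2B-OE. Its lowest value came from SRSF6-OE replicate 3. In that contrast the log2 fold change was -1.58 ± 0.55 (edgeR adjusted p = 0.193, DESeq2 adjusted p = 0.0499), and leaving out 1 library at a time moved it between -2.90 and -0.72.

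Cathepsin B, a cysteine protease with endo- and exopeptidase activity, was set apart by a single library. CTSB measured 461 and 572 CPM in Control, 386, 870.0 and 434 in SRSF2-OE, 534 and 585 in SRSF4-OE, 623 and 1658 in SRSF6-OE, 498, 658 and 714 in SRSF9-OE, and 482 and 344 in TRA2B-OE. Replicate 3 of SRSF6-OE stood at 1658 CPM, and the other libraries lay between 344 and 870.0. The fitted log2 fold change in SRSF6-OE was 1.08 ± 0.46 (edgeR adjusted p = 0.241), with a leave-one-out range of 0.27 to 1.69. Cathepsin Z, or CTSZ, a carboxypeptidase, measured 90.2 and 115 CPM in Control, 98.3, 207 and 101 in SRSF2-OE, 145 and 180.0 in SRSF4-OE, 128 and 175 in SRSF6-OE, 126, 133 and 160.0 in SRSF9-OE, and 116 and 81.9 in TRA2B-OE. All SRSF4-OE, SRSF6-OE and SRSF9-OE libraries lay above Control, while SRSF2-OE held a single high library. In SRSF4-OE the log2 fold change was 0.66 ± 0.36 (edgeR adjusted p = 0.398).

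The protective protein CTSA, a carboxypeptidase that also holds sialidase and beta-galactosidase in a complex, measured 120.0 and 108 CPM in Control, 127, 144 and 174 in SRSF2-OE, 120.0 and 129 in SRSF4-OE, 121 and 95 in SRSF6-OE, 108, 86.2 and 99.7 in SRSF9-OE, and 103 and 115 in TRA2B-OE. All SRSF2-OE libraries lay above Control, with a log2 fold change of 0.41 ± 0.19 (edgeR adjusted p = 0.382). Genes annotated on the opposite strand, PLTP and NEURL2 among them, overlap 28.5% of its exon bases. CTSS, known for antigen processing in immune cells, measured 1.69 and 1.08 CPM in Control, 0.543, 0.683 and 0.54 in SRSF2-OE, 1.8 and 0.771 in SRSF4-OE, 2.85 and 2.26 in SRSF6-OE, 0.755, 0.796 and 0.983 in SRSF9-OE, and 2.5 and 0.492 in TRA2B-OE. Both SRSF6-OE libraries lay above Control and all 3 SRSF2-OE libraries below it, with log2 fold changes of 0.94 ± 0.43 and -0.65 ± 0.42 (edgeR adjusted p = 0.258 and 0.521). CTSK, the collagen-degrading cathepsin of osteoclasts, ranged from 7.84 to 21.9 CPM, and its highest value was in Control replicates 1-2. CTSL ranged from 67.3 to 120.0 CPM, both extremes in TRA2B-OE, and the tripeptidyl peptidase TPP1 from 87.3 to 150.0.

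**Figure D3:**
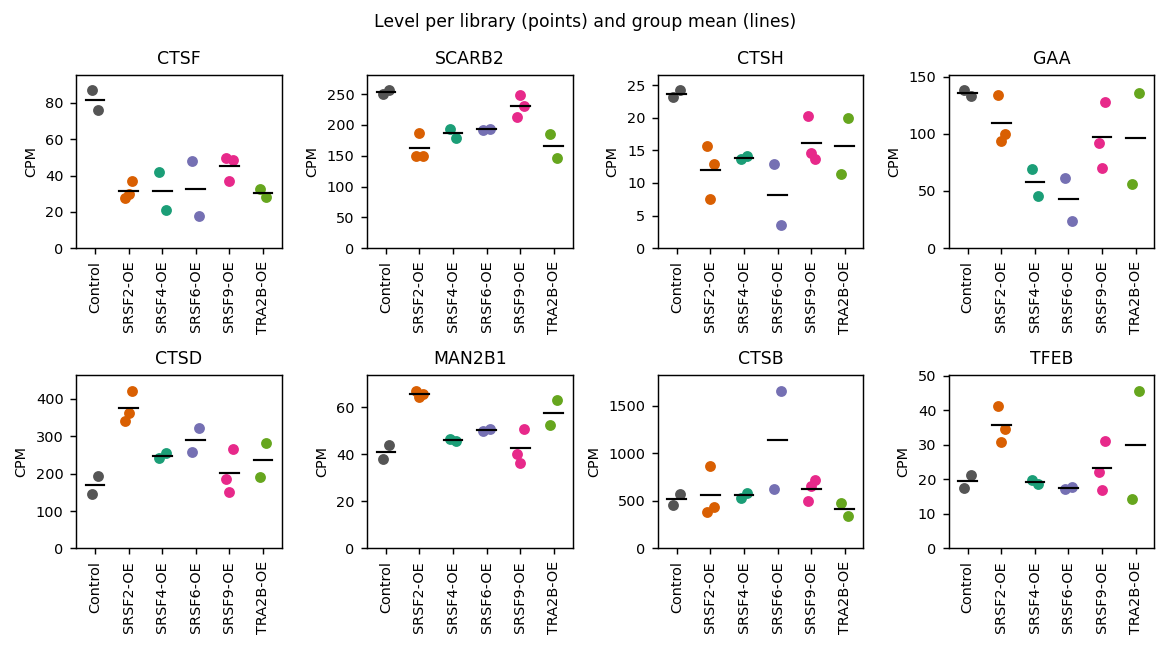
Each point is the level of a gene in 1 library in CPM on a linear axis from 0, lines are group means, and groups have 2 or 3 libraries. CTSF, SCARB2 and CTSH lie below both Control libraries in every overexpression group, CTSD and MAN2B1 are highest in SRSF2-OE (means 374 and 65.6), CTSB has a single high library in SRSF6-OE (1658), and TFEB differs between the TRA2B-OE libraries (14.4 and 45.7).

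Of the 13 glycosidases and sulfatases, FUCA2 had the largest fitted differences in SRSF2-OE and SRSF4-OE. It encodes plasma alpha-L-fucosidase, a relative of the lysosomal FUCA1. FUCA2 measured 51.2 and 66.2 CPM in Control, 65.3, 2.3 and 2.09 in SRSF2-OE, 13.2 and 10.6 in SRSF4-OE, 28.5 and 41.4 in SRSF6-OE, 50.8, 62.5 and 64.2 in SRSF9-OE, and 56.7 and 71.6 in TRA2B-OE. Within SRSF2-OE the levels spanned 31.2-fold, with replicate 1 at the level of Control, and in every other group they spanned 1.25-fold to 1.45-fold. In GENCODE release 29, 16.9% of its exon bases overlap genes on the opposite strand. Replicate 1 is also the SRSF2-OE library with the least SRSF2, at 214 CPM.

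With that library in the fit, the log2 fold change of FUCA2 was -1.44 ± 1.16 in SRSF2-OE and -2.27 ± 1.28 in SRSF4-OE, with edgeR adjusted p-values of 0.617 and 0.413, and DESeq2 gave no adjusted p. Without SRSF2-OE replicate 1, edgeR gave -4.85 (adjusted p = 2.3e-04) in SRSF2-OE and -2.27 (adjusted p = 0.011) in SRSF4-OE. With only the SRSF4-OE and Control libraries fitted, the latter adjusted p was 0.0035. That setting is not particular to FUCA2: it also called CTSF, CTSH, GAA and CTSZ. It called far more genes over all than the main fit did, as given under the dependence on processing. The alternatives are not independent of the values: replicate 1 was doubted for its SRSF2 level, but it is also the library that differs in FUCA2.

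The genes around FUCA2 were measured in the same libraries. In SRSF2-OE replicates 2 and 3, where FUCA2 was at 2.3 and 2.09 CPM, AIG1 measured 60.3 and 61.5, ADAT2 39.4 and 58.8, PEX3 19.5 and 18.5, PHACTR2 18.1 and 12.9, and LTV1 17.8 and 14.1. Over all libraries, PEX3 ranged from 15.2 to 25.5 CPM and PHACTR2 from 12.9 to 21.8. FUCA1 itself, which removes fucose from glycoproteins and glycolipids inside the lysosome, measured 6.42 and 9.32 CPM in Control, 6.75, 4.84 and 5.04 in SRSF2-OE, 8.11 and 5.34 in SRSF4-OE, 10.7 and 10.6 in SRSF6-OE, 9.01, 11.4 and 8.97 in SRSF9-OE, and 12.3 and 7.92 in TRA2B-OE. The SRSF2-OE libraries overlapped Control, and the log2 fold change of -0.43 ± 0.29 there had an edgeR adjusted p of 0.544.

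**Figure D4:**
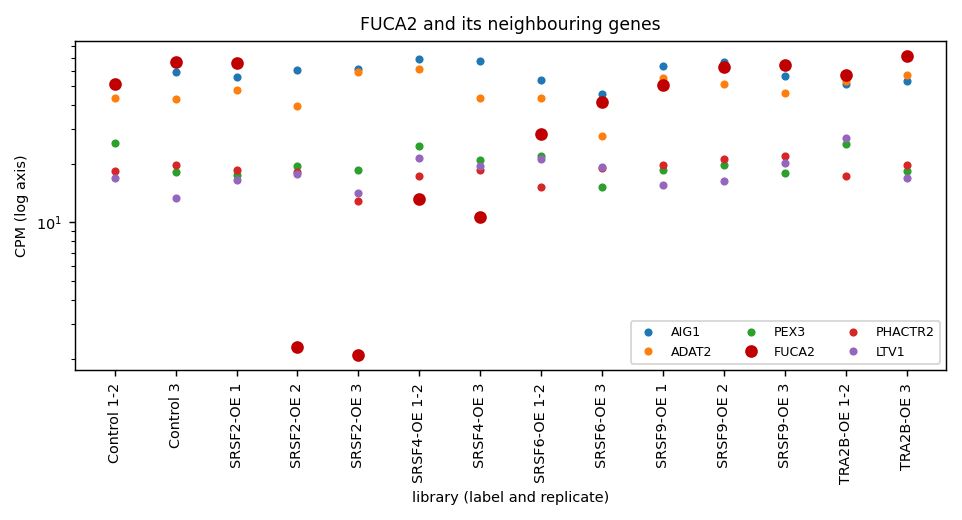
Points show the level of FUCA2 (large red points) and of 5 genes beside it in each library, in CPM on a log axis. FUCA2 is at 2.3 and 2.09 in SRSF2-OE replicates 2 and 3 and at 13.2 and 10.6 in SRSF4-OE, while PEX3 lies between 15.2 and 25.5 in all libraries.

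GAA, the acid alpha-glucosidase that degrades glycogen, measured 138 and 133 CPM in Control, 134, 93.4 and 99.7 in SRSF2-OE, 69.2 and 45.9 in SRSF4-OE, 61.6 and 24.0 in SRSF6-OE, 92.1, 70.2 and 128 in SRSF9-OE, and 56.2 and 136 in TRA2B-OE. The SRSF4-OE and SRSF6-OE libraries lay well under Control and those of TRA2B-OE disagreed. The log2 fold change was -1.26 ± 0.50 in SRSF4-OE and -1.71 ± 0.51 in SRSF6-OE, with edgeR adjusted p-values of 0.294 and 0.170 and DESeq2 adjusted p-values of 0.157 and 0.024. In TRA2B-OE it was -0.46 ± 0.50 (edgeR adjusted p = 0.759), and -1.65 without TRA2B-OE replicate 3 and SRSF2-OE replicate 1.

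MAN2B1, the lysosomal alpha-mannosidase, measured 38.0 and 43.9 CPM in Control, 67.0, 64.4 and 65.6 in SRSF2-OE, 46.5 and 45.8 in SRSF4-OE, 50 and 50.9 in SRSF6-OE, 40.3, 36.4 and 50.9 in SRSF9-OE, and 52.3 and 63.0 in TRA2B-OE. The SRSF2-OE libraries were close together and all above every library of the other groups. The log2 fold change was 0.62 ± 0.16 in SRSF2-OE (edgeR adjusted p = 0.207, DESeq2 adjusted p = 0.042) and 0.49 ± 0.17 in TRA2B-OE (edgeR adjusted p = 0.310). In GENCODE release 29, 21.2% of its exon bases overlap another gene on the same strand.

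HEXA, the alpha subunit of beta-hexosaminidase A, measured 46.8 and 52.8 CPM in Control, 48.8, 51.3 and 55.8 in SRSF2-OE, 44.6 and 39.6 in SRSF4-OE, 36.7 and 18.9 in SRSF6-OE, 49.5, 47.6 and 42.2 in SRSF9-OE, and 43.5 and 42.2 in TRA2B-OE. Only the SRSF6-OE libraries went below 39.6 CPM. Its log2 fold change in SRSF6-OE was -0.89 ± 0.23 (edgeR adjusted p = 0.154, DESeq2 adjusted p = 0.030). The lower value again came from replicate 3, and the leave-one-out range was -1.39 to -0.44. Genes on the opposite strand overlap 13.0% of the HEXA exon bases. ARSA, the sulfatase that acts on sulfatide, measured 29.2 and 26.5 CPM in Control, 38.6, 43.2 and 44 in SRSF2-OE, 39.6 and 33 in SRSF4-OE, 30.7 and 26.1 in SRSF6-OE, 32.6, 22.5 and 35.3 in SRSF9-OE, and 29.9 and 37.6 in TRA2B-OE. Each SRSF2-OE library lay above Control, with a log2 fold change of 0.63 ± 0.22 (edgeR adjusted p = 0.279).

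NAGLU and SGSH both act in heparan sulfate breakdown. NAGLU measured 17.9 and 22.8 CPM in Control, 27.4, 30.5 and 26.7 in SRSF2-OE, 24.9 and 24.1 in SRSF4-OE, 26.7 and 27.5 in SRSF6-OE, 22.6, 25 and 29 in SRSF9-OE, and 27 and 26 in TRA2B-OE. SRSF9-OE was the only overexpression group with a library inside the Control range. The fit gave log2 fold changes of 0.44 in SRSF2-OE, 0.27 in SRSF4-OE, 0.42 in SRSF6-OE, 0.29 in SRSF9-OE and 0.38 in TRA2B-OE, and the smallest edgeR adjusted p was 0.231, in SRSF6-OE. SGSH ranged from 46.9 to 72.8 CPM. IDS, a sulfatase of the same pathway, measured 12.9 and 6.95 CPM in Control, 4.08, 3.41 and 3.73 in SRSF2-OE, 5.7 and 4.42 in SRSF4-OE, 6.26 and 7.99 in SRSF6-OE, 5.47, 6.39 and 5.99 in SRSF9-OE, and 7.41 and 4.1 in TRA2B-OE. The Control libraries differed from each other, and the SRSF2-OE libraries lay below both. Its log2 fold change in SRSF2-OE was -1.14 ± 0.29 (edgeR adjusted p = 0.192, DESeq2 adjusted p = 0.018), with the limit on its counts given above and 17.4% of exon bases shared with genes on the same strand. The beta-galactosidase GLB1 ranged from 52.1 to 85.9 CPM and the beta-glucuronidase GUSB from 34.3 to 55.5.

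The 5 genes of lipid breakdown and cholesterol export had their largest fitted difference in NPC1. PSAP had means of 642 to 872 CPM over the 6 groups, and its largest fitted difference was -0.31 ± 0.22 in TRA2B-OE (edgeR adjusted p = 0.603). LIPA, the acid lipase that frees cholesterol and fatty acids from lipoproteins, measured 67.4 and 98.6 CPM in Control, 103, 90.8 and 121 in SRSF2-OE, 123 and 131 in SRSF4-OE, 98 and 76.9 in SRSF6-OE, 106, 109 and 90.3 in SRSF9-OE, and 113 and 98.4 in TRA2B-OE. The SRSF4-OE libraries were the highest, with a log2 fold change of 0.61 ± 0.22 (edgeR adjusted p = 0.271). NPC1, the membrane protein that exports cholesterol together with NPC2, measured 60.5 and 66.1 CPM in Control, 67, 108 and 76.1 in SRSF2-OE, 59.3 and 85.8 in SRSF4-OE, 66.2 and 197 in SRSF6-OE, 68.4, 93.8 and 89.2 in SRSF9-OE, and 61.1 and 60.5 in TRA2B-OE. No library but SRSF6-OE replicate 3 exceeded 108 CPM. The fitted NPC1 change in SRSF6-OE was 0.93 ± 0.36 (edgeR adjusted p = 0.221), with a leave-one-out range of 0.18 to 1.53. NPC2 ranged from 90.2 to 184 CPM and ASAH1 from 83.5 to 117.

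Among the 5 membrane proteins, SCARB2 was the one below Control throughout. SCARB2, or LIMP-2, carries beta-glucocerebrosidase to the lysosome and measured 250.0 and 256 CPM in Control, 149, 187 and 150.0 in SRSF2-OE, 194 and 178 in SRSF4-OE, 192 and 193 in SRSF6-OE, 213, 249 and 230.0 in SRSF9-OE, and 185 and 146 in TRA2B-OE. In SRSF9-OE the highest library, at 249 CPM, lay just under Control. The log2 fold changes were -0.59 ± 0.16, -0.45 ± 0.17, -0.39 ± 0.17, -0.08 ± 0.16 and -0.62 ± 0.17 in the same order, and the smallest edgeR adjusted p was 0.211. DESeq2 gave an adjusted p of 0.014 for SCARB2 in its test over the 5 contrasts and of 0.051 and 0.057 in SRSF2-OE and TRA2B-OE.

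LAMP1 ranged from 169 to 244 CPM, LAMP2 from 155 to 236 and CD63 from 175 to 375, the last at its highest in SRSF6-OE replicate 3. LAMP2 was lower than both Control libraries in TRA2B-OE, at 176 and 155 against 234 and 212 CPM, with a log2 fold change of -0.43 ± 0.19 (edgeR adjusted p = 0.417). MCOLN1, the calcium channel through which lysosomes signal to TFEB, measured 16.0 and 12.1 CPM in Control. It measured 22.5, 16.3 and 23.1 CPM in SRSF2-OE and 17.0 and 22.5 in SRSF6-OE, all above Control, and overlapped Control or lay within its range in the other groups. In SRSF2-OE the log2 fold change was 0.46 ± 0.29 (edgeR adjusted p = 0.511).

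Of the 4 pump subunits, 3 were tested. ATP6V1A, the catalytic subunit, ranged from 74.4 to 110.0 CPM, ATP6V1H, a regulatory subunit, from 40.8 to 80.6, and ATP6V0D1, of the membrane sector, from 45.8 to 87.3. The ATP6V0D1 libraries of SRSF2-OE (84.9, 80.4 and 76.5 CPM) and TRA2B-OE (71.0 and 87.3) were all above Control (63.2 and 57.3). Their log2 fold changes of 0.27 ± 0.20 and 0.37 ± 0.20 had edgeR adjusted p-values of 0.581 and 0.492.

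Of the TFEB family, TFEB stood at 4.42 CPM per kb and MITF at 0.655. Values of TFE3 are printed last, but are not read as levels of expression, for the reason given above. TFEB measured 17.5 and 21.3 CPM in Control, 41.3, 30.9 and 34.7 in SRSF2-OE, 19.9 and 18.8 in SRSF4-OE, 17.3 and 17.9 in SRSF6-OE, 22.1, 16.9 and 31.0 in SRSF9-OE, and 14.4 and 45.7 in TRA2B-OE. All SRSF2-OE libraries lay above Control, and the TRA2B-OE libraries lay on either side of it. The log2 fold change in SRSF2-OE was 0.65 ± 0.40 (edgeR adjusted p = 0.503). In TRA2B-OE it was 0.53 ± 0.40 (edgeR adjusted p = 0.644). Without TRA2B-OE replicate 3 and SRSF2-OE replicate 1 it turned to -0.40, so TFEB has no settled direction in TRA2B-OE. MITF, better known from melanocytes, measured 6.64 and 4.45 CPM in Control, 6.57, 2.13 and 8.82 in SRSF2-OE, 5.12 and 5.34 in SRSF4-OE, 3.27 and 2.28 in SRSF6-OE, 4.12, 3.48 and 1.94 in SRSF9-OE, and 5.28 and 6.46 in TRA2B-OE. The 4 melanocyte genes summed to 4.68 to 7.56 CPM, with PMEL at 3.35 to 6.09, MLANA at 0.701 to 1.49 and TYR at 0 counts. All SRSF6-OE and SRSF9-OE libraries were below Control in MITF. In SRSF6-OE its log2 fold change was -1.0 ± 0.56 (edgeR adjusted p = 0.333). TFE3 measured 0.941 and 0.451 CPM in Control, 1.02, 0.32 and 1.51 in SRSF2-OE, 0.744 and 0.917 in SRSF4-OE, 0.725 and 0.56 in SRSF6-OE, 0.593, 0.279 and 0.431 in SRSF9-OE, and 0.812 and 0.946 in TRA2B-OE, and its log2 fold changes lay between -0.55 and 0.57 with standard errors of 0.62 to 0.64.

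Promoter sequences show which members carry the core of the element bound by the TFEB family. RefSeq promoters on build GRCh38.p14, running from 250 bases before to 50 bases after each start, were found for 28 of the 40 members. The core CACGTG, a palindrome and so the same on both strands, was in 32.1% of these members (9 of 28) against 8.77% of the 27305 genes with a promoter in the table. The longer TCACGTG, searched on both strands and always containing the core, was in 28.6% against 4.49%, and the longer palindrome TCACGTGA in 17.9% (ATP6V0D1, CTSA, GAA, LAMP1 and MCOLN1) against 1.18%. The 9 members with the core were ATP6V0D1, CD63, CTSA, CTSD, CTSF, GAA, LAMP1, MCOLN1 and NEU1. These shares describe the letters in the window only.

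The 250 bases before the start are printed for CTSF and CTSD, which share the core but lay on opposite sides of Control, for GAA and MCOLN1, which hold the longer palindrome, and for FUCA2, the most variable member, which has no core. Capitals mark the core, with a T just before it or an A just after it where present. The windows are chr11:66568607-66568856 (minus strand) for CTSF, chr11:1763928-1764177 (minus) for CTSD, chr17:80101331-80101580 (plus) for GAA, chr19:7522374-7522623 (plus) for MCOLN1 and chr6:143511721-143511970 (minus) for FUCA2.
CTSF: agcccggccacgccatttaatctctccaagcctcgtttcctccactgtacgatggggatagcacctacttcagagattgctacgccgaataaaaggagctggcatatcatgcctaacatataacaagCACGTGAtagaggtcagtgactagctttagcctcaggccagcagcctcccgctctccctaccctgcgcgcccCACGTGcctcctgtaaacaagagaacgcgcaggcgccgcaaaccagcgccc
CTSD: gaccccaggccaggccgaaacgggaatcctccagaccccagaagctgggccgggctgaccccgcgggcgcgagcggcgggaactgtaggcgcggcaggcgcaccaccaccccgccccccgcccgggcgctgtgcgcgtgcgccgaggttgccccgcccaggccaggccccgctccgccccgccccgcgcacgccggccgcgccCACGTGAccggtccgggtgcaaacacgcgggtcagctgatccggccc
GAA: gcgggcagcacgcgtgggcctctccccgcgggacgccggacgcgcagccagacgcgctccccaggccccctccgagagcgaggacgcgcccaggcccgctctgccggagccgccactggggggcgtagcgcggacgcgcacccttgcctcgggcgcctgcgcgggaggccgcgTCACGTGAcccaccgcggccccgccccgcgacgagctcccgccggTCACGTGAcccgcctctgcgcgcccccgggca
MCOLN1: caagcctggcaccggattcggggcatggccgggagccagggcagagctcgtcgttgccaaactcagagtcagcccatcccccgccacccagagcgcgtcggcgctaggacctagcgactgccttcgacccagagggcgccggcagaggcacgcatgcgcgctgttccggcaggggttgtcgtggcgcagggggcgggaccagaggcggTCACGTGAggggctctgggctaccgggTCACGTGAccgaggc
FUCA2: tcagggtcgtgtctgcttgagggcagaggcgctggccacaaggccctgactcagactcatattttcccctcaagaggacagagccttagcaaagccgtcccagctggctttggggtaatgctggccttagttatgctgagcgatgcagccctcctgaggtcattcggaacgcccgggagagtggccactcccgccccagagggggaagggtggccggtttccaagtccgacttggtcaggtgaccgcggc
Counted back from the start, the marked stretches begin at -123 (CACGTGA) and -51 (CACGTG) in CTSF, at -47 (CACGTGA) in CTSD, at -77 (TCACGTGA) and -32 (TCACGTGA) in GAA, and at -42 (TCACGTGA) and -15 (TCACGTGA) in MCOLN1. The carriers did not share a direction: in SRSF4-OE, for example, the log2 fold change was -1.47 for CTSF, -1.26 for GAA, -0.01 for MCOLN1 and 0.57 for CTSD.

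Of 55 other lysosomal hydrolases, membrane proteins and pump subunits, 53 were tested, and their median log2 fold changes were -0.02 in SRSF2-OE, -0.04 in SRSF4-OE, -0.02 in SRSF6-OE, -0.08 in SRSF9-OE and 0.11 in TRA2B-OE. edgeR called 0 of them in each contrast. At an unadjusted p below 0.05 there were 7, 7, 10, 2 and 2, or 13.2%, 13.2%, 18.9%, 3.77% and 3.77% of those tested, against 13.4%, 14.9%, 19.5%, 4.47% and 12.0% of all genes. DESeq2 called 2 (MANBA and CTSC), 1 (CD68), 3 (TPCN2, CTSC and CD68), 0 and 1 (MANBA), or 3.77%, 1.89%, 5.66%, 0% and 1.89%, against 2.37%, 2.70%, 5.81%, 0.0703% and 2.12% of all genes. MANBA, the lysosomal beta-mannosidase, measured 51.6 and 51.5 CPM in Control, 29.6, 29.3 and 32.2 in SRSF2-OE, 45.3 and 33.9 in SRSF4-OE, 40.7 and 35.5 in SRSF6-OE, 44.3, 45.2 and 39.1 in SRSF9-OE, and 36.8 and 32.8 in TRA2B-OE. Every overexpression library was below Control, with a log2 fold change of -0.67 ± 0.14 in SRSF2-OE (edgeR adjusted p = 0.158, DESeq2 adjusted p = 0.0036) and -0.57 ± 0.14 in TRA2B-OE (0.215 and 0.030). CTSC, which activates granule proteases, measured 367 and 387 CPM in Control, 679, 679 and 802 in SRSF2-OE, 481 and 528 in SRSF4-OE, 534 and 954 in SRSF6-OE, 416, 383 and 496 in SRSF9-OE, and 438 and 563 in TRA2B-OE. Its log2 fold change was 0.75 ± 0.22 in SRSF2-OE (edgeR adjusted p = 0.224, DESeq2 adjusted p = 0.045) and 0.93 ± 0.22 in SRSF6-OE (0.144 and 0.0045), and replicate 3 of SRSF6-OE was the highest library.

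CD68, a lysosomal membrane protein best known from macrophages, was low and measured 0.765 and 1.22 CPM in Control, 0.804, 0.469 and 0.495 in SRSF2-OE, 0.248 and 0.25 in SRSF4-OE, 0.269 and 0.172 in SRSF6-OE, 0.467, 0.597 and 0.815 in SRSF9-OE, and 0.436 and 1.18 in TRA2B-OE. All SRSF4-OE and SRSF6-OE libraries lay below Control, with log2 fold changes of -1.92 ± 0.52 (edgeR adjusted p = 0.231, DESeq2 adjusted p = 0.042) and -2.02 ± 0.52 (0.154 and 0.020). TPCN2, an ion channel of the lysosomal membrane, measured 23.4 and 25.4 CPM in Control, 27.6, 34.5 and 34.9 in SRSF2-OE, 29.5 and 29.6 in SRSF4-OE, 32.5 and 38.7 in SRSF6-OE, 27.8, 26 and 28.5 in SRSF9-OE, and 28.3 and 25.9 in TRA2B-OE. In SRSF6-OE its log2 fold change was 0.54 ± 0.16 (edgeR adjusted p = 0.170, DESeq2 adjusted p = 0.041). Of the other pump subunits, ATP6V1B2 measured 93.4 and 99.6 CPM in Control, 71.3, 85.1 and 74.6 in SRSF2-OE, 77.3 and 77 in SRSF4-OE, 101 and 140.0 in SRSF6-OE, 86.1, 103 and 95.2 in SRSF9-OE, and 87.6 and 77.9 in TRA2B-OE. ATP6V0B measured 46.1 and 44.8 CPM in Control, 55.6, 54.7 and 70.6 in SRSF2-OE, 42.3 and 52.4 in SRSF4-OE, 44.4 and 64.7 in SRSF6-OE, 44.6, 39.2 and 45.6 in SRSF9-OE, and 53.2 and 49.9 in TRA2B-OE. Of ATP6V1B2 and ATP6V0B, the smallest edgeR adjusted p was 0.325, for ATP6V1B2 in SRSF6-OE, where the log2 fold change was 0.32 ± 0.17. Over all 13 other pump subunits the smallest was 0.218, also in SRSF6-OE.

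Of 20 genes through which mTORC1 and the Rag GTPases act on TFEB, edgeR called 0 in each contrast, with 7, 7, 6, 4 and 9 at an unadjusted p below 0.05 in the order above. These are 35%, 35%, 30%, 20% and 45% of the list, beside 13.4%, 14.9%, 19.5%, 4.47% and 12.0% of all genes. DESeq2 called 2, 2, 1, 0 and 2, namely RRAGD and FNIP1, the same pair, RRAGD, none, and FNIP1 with LAMTOR2, the last named only after its values were seen. These calls are 10%, 10%, 5%, 0% and 10% of the list, beside 2.37%, 2.70%, 5.81%, 0.0703% and 2.12% of all genes. RRAGD encodes RagD, a GTPase through which TFEB and MITF are brought to mTORC1. It measured 8.68 and 5.77 CPM in Control, 2.01, 0.747 and 0.607 in SRSF2-OE, 1.64 and 1.67 in SRSF4-OE, 1.31 and 0.56 in SRSF6-OE, 2.77, 2.81 and 1.94 in SRSF9-OE, and 2.3 and 3.41 in TRA2B-OE. Every overexpression library was below both Control libraries. The log2 fold change was -2.52 ± 0.55 in SRSF2-OE and -2.96 ± 0.60 in SRSF6-OE, with edgeR adjusted p-values of 0.171 and 0.127 and DESeq2 adjusted p-values of 0.0015 and 1.1e-04. FNIP1, a folliculin partner that acts on the Rag GTPases, measured 107 and 64.7 CPM in Control, 38.3, 42.2 and 42.6 in SRSF2-OE, 52.6 and 47.1 in SRSF4-OE, 60.6 and 63.6 in SRSF6-OE, 54.4, 60.1 and 52.3 in SRSF9-OE, and 47 and 39.2 in TRA2B-OE. Every overexpression library was below both Control libraries, which differed from each other. The log2 fold changes ran from -0.98 ± 0.18 in TRA2B-OE (edgeR adjusted p = 0.121, DESeq2 adjusted p = 0.0014) to -0.43 ± 0.18 in SRSF6-OE (edgeR adjusted p = 0.235).

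In the list of genes that sort hydrolases to the lysosome, 17 of 18 were tested and edgeR called 0 in each contrast. At an unadjusted p below 0.05 there were 2, 3, 4, 0 and 1 (11.8%, 17.6%, 23.5%, 0% and 5.88%, beside the same unadjusted shares of all genes as above). DESeq2 called 1, 1, 1, 0 and 0, or 5.88%, 5.88%, 5.88%, 0% and 0%, beside 2.37%, 2.70%, 5.81%, 0.0703% and 2.12% of all genes. The sorting receptor SORT1 measured 34.1 and 49.5 CPM in Control, 31.4, 14.3 and 23.4 in SRSF2-OE, 15.2 and 18.6 in SRSF4-OE, 15.8 and 13.7 in SRSF6-OE, 37, 43.3 and 36.4 in SRSF9-OE, and 27.3 and 46.7 in TRA2B-OE. The SRSF2-OE, SRSF4-OE and SRSF6-OE libraries lay below Control, with log2 fold changes of -1.01 ± 0.31, -1.29 ± 0.33 and -1.45 ± 0.33. In that order, edgeR gave adjusted p-values of 0.233, 0.224 and 0.138, and DESeq2 gave 0.080, 0.022 and 0.0050. VPS41, a subunit of the tethering complex that fuses vesicles with lysosomes, measured 66.5 and 61.7 CPM in Control, 39.9, 41.7 and 43.7 in SRSF2-OE, 53.7 and 50.6 in SRSF4-OE, 64.2 and 67.9 in SRSF6-OE, 56, 57.4 and 47.9 in SRSF9-OE, and 49.9 and 42.3 in TRA2B-OE. Its log2 fold change in SRSF2-OE was -0.57 ± 0.14 (edgeR adjusted p = 0.178, DESeq2 adjusted p = 0.016).

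In the autophagy list, 20 of 21 genes were tested, edgeR called 0, and the medians were -0.25, -0.28, -0.04, -0.13 and -0.15, with 6, 3, 3, 1 and 5 genes at an unadjusted p below 0.05 (30%, 15%, 15%, 5% and 25%, beside the same shares of all genes). DESeq2 called 0, 1, 0, 0 and 1, which were SQSTM1 in SRSF4-OE, named after its values were seen, and HIF1A in TRA2B-OE. These calls are 0%, 5%, 0%, 0% and 5% of the list, beside 2.37%, 2.70%, 5.81%, 0.0703% and 2.12% of all genes. HIF1A, the oxygen-regulated transcription factor, measured 217 and 193 CPM in Control, 282, 316 and 263 in SRSF2-OE, 231 and 221 in SRSF4-OE, 213 and 215 in SRSF6-OE, 191, 190.0 and 225 in SRSF9-OE, and 301 and 306 in TRA2B-OE. Its log2 fold change in TRA2B-OE was 0.57 ± 0.16 (edgeR adjusted p = 0.248, DESeq2 adjusted p = 0.031). ATG9B measured 0.382 and 1.59 CPM in Control, 0.382, 0.64 and 0.337 in SRSF2-OE, 0.835 and 6.15 in SRSF4-OE, 0.51 and 8.78 in SRSF6-OE, 2.09, 2.93 and 1.27 in SRSF9-OE, and 0.812 and 0.394 in TRA2B-OE, with standard errors of 0.88 to 0.92 on its log2 fold changes.

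The 10 proliferation genes are given as a measure of how the cultures differed. Their median log2 fold change was 0.82 in SRSF2-OE, 1.36 in SRSF4-OE, 1.34 in SRSF6-OE, 0.42 in SRSF9-OE and 1.43 in TRA2B-OE, and their summed level ranged from 235 to 1241 CPM, with 235 and 517 in Control. edgeR called 0 of them, with 1, 5, 4, 0 and 5 at an unadjusted p below 0.05. These are 10%, 50%, 40%, 0% and 50% of the list, beside 13.4%, 14.9%, 19.5%, 4.47% and 12.0% of all genes. DESeq2 called 0, 2 (TPX2 and AURKA), 4 (with RRM2 and MKI67, named after their values were seen), 0 and 1 (RRM2). These are 0%, 20%, 40%, 0% and 10% of the list, beside 2.37%, 2.70%, 5.81%, 0.0703% and 2.12% of all genes. The mitotic kinase AURKA measured 10.9 and 21.7 CPM in Control, 46.4, 18.2 and 40.2 in SRSF2-OE, 37.8 and 68.3 in SRSF4-OE, 50.1 and 47.3 in SRSF6-OE, 34.1, 28.7 and 12 in SRSF9-OE, and 42.5 and 53.2 in TRA2B-OE. Its activator TPX2 measured 29.7 and 60.2 CPM in Control, 132, 57.7 and 104 in SRSF2-OE, 100 and 187 in SRSF4-OE, 148 and 124 in SRSF6-OE, 105, 81.1 and 34.9 in SRSF9-OE, and 92.5 and 152 in TRA2B-OE. The lowest library for both genes was in Control. The endothelial list, 4 genes, also differed in level: it summed to 26.3 and 20.4 CPM in Control and 4.35 to 15.5 in the overexpression libraries, from KDR (at most 26.2) and TEK (at most 9.09), while CDH5 reached at most 0.0197 CPM and VWF 0.135. The fibroblast list summed to 549 and 262 CPM in Control and 159 to 432 elsewhere, nearly all of it COL1A1 and DCN, with COL1A2, COL3A1, LUM and PDGFRA at most at 0.436. The part of these lists in the differences of CTSF, CTSH, SCARB2 and RRAGD was not tested.

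**Figure D5:**
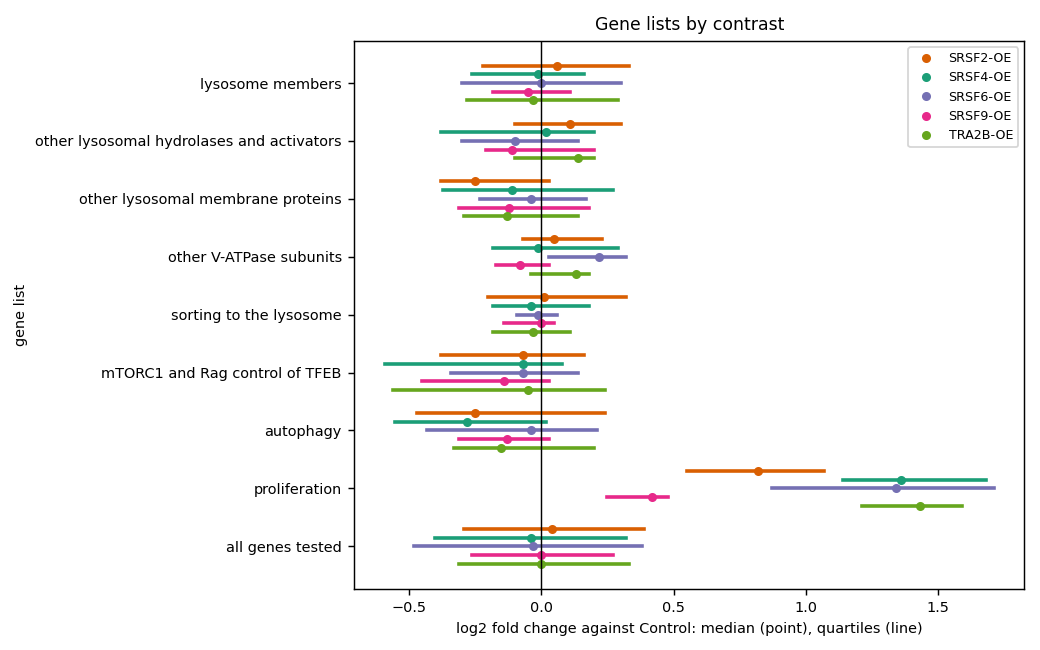
Points are medians and lines run between the quartiles of fitted log2 fold changes against Control, for each gene list in the 5 contrasts. The lysosome members sit around 0 (medians -0.05 to 0.06) like all genes tested, and the proliferation list sits to the right (0.42 to 1.43).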

How the data were processed

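Messenger RNA was read as paired 101-base reads from a stranded kit, per the labels' protocols. The authors deposited raw counts per gene; the submitters' processing notes list GRCh37, Trimmomatic 0.36, STAR 2.5.1b, Subread and featureCounts. The annotation, and whether counting used strand, are not given in the sources used here. The 18 samples held 36426438 to 70515965 counts each. Of 60252 identifiers, 55487 were named; the unnamed ones held 0.3077% to 0.6825% of counts and stayed in the fit.

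Lanes of a library were summed. edgeR 4.0.16 (R 4.3.3) fitted all 6 groups with TMM, its default filter (minimum count 10), and a term for the kind of library label, leaving 7 residual degrees of freedom and a common biological coefficient of variation of 0.3177; p-values were adjusted over 21326 genes. DESeq2 1.42.0 and limma 3.58.1 (voom) were alternatives, with those described under the dependence on processing. The edgeR standard errors were derived, as the size of the log2 fold change divided by the square root of its quasi-likelihood F statistic. Fitting was tested on simulated data. Members and lists were chosen with earlier results of these data known. Values per library were printed for members called by edgeR, for the 3 highest and 3 lowest log2 fold changes per contrast among members averaging at least 3 CPM, for the 8 smallest F test p-values and for the TFEB family; in other lists, for genes called by edgeR or else the 2 with the smallest F test p. Outside this rule, values per library of LAMP2, MCOLN1 and ATP6V0D1 were also printed, picked with their values known. Exon lengths and overlaps came from GENCODE release 29, promoters from RefSeq.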

Additional observations from a re-analysis of the deposited data

How the results depend on the processing

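All alternatives were run against the edgeR fit described above. Of 2415 contrast values of the 21 named members under 23 other settings, 2313 kept their direction and 102 changed sign, each with a fitted size of at most 0.57. In the order SRSF2-OE, SRSF4-OE, SRSF6-OE, TRA2B-OE and F test, members called numbered 3, 1, 4, 1 and 5 with DESeq2 and 7, 6, 8, 6 and 6 with the 18 samples as separate replicates, which counts lanes of a library as replicates. With only the libraries compared, 5 were called in SRSF4-OE. Without SRSF2-OE replicate 1 and TRA2B-OE replicate 3, 1 was called in SRSF2-OE, SRSF4-OE and the F test (0.207%, 0.396% and 0.337% of all genes). The DESeq2 calls were 8.11%, 2.7%, 10.8%, 2.7% and 13.5% of the members tested, beside 2.37%, 2.70%, 5.81%, 2.12% and 7.41% of all genes. Under each of these settings, calls over all genes also outnumbered those of the main fit where members were called, as counted in the next paragraph.

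Over all genes, in the order SRSF2-OE, SRSF4-OE, SRSF6-OE, SRSF9-OE, TRA2B-OE and F test, calls numbered 506, 575, 1238, 15, 452 and 1581 with DESeq2, 2, 3, 5, 2, 12 and 50 with no filter, and 1345, 3465, 4030, 5, 2897 and 3725 with 18 separate samples. With only the libraries compared they were 2504 in SRSF4-OE, 156 in SRSF6-OE, 1 in SRSF9-OE and 0 in TRA2B-OE. Without the 2 libraries named above they were 46 in SRSF2-OE, 88 in SRSF4-OE, 48 in SRSF6-OE and 75 in the F test. limma-voom gave 19 in SRSF6-OE and 5 in TRA2B-OE, and leaving out the label term gave 1 in SRSF9-OE and 0 in TRA2B-OE. The median over members in SRSF2-OE was 0.00 with limma-voom and 0.11 without those 2 libraries, and in TRA2B-OE 0.049 without them. With plain library sizes the summed level was 4306 CPM in Control and 4239 in SRSF4-OE, 4110.0 in SRSF2-OE and 4163 in SRSF9-OE, all 3 below Control, and 4476 in SRSF6-OE and 3781 in TRA2B-OE. The cause was not tested.

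With a replicate block, calls over all genes were 0 in SRSF6-OE, 0 in TRA2B-OE and 4 in the F test, and 0 members were called. The labels do not say that equal numbers pair samples, and deviations of same-numbered libraries correlated at -0.42 to 0.494.

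Leaving out 1 library at a time gave 0 to 1 members called in SRSF2-OE, SRSF4-OE and the F test, the 1 being FUCA2 without SRSF2-OE replicate 1, and 0 elsewhere. Calls over all genes ranged from 0 to 69 in SRSF2-OE, 0 to 24 in SRSF4-OE, 0 to 48 in SRSF6-OE, 0 to 2 in SRSF9-OE, 0 to 14 in TRA2B-OE and 0 to 47 in the F test. Member medians ranged from -0.029 to 0.089, -0.01 to 0.056, -0.013 to 0.024, -0.113 to 0.037 and -0.086 to 0.05 in the 5 contrasts.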
